A study of Mus musculus with 64 samples.

Results

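Microglia of 16-month-old female mice were compared here with microglia of 3-month-old female mice across all 5647 genes that have values, in 5 and 4 mice of the 64 in the series. The 9 libraries were chosen by sex, age and treatment alone. Every mouse was a wild-type C57BL/6J female that had received PBS, the vehicle of the LPS experiment, and gave 1 library. Cells were sorted from brain without the cerebellum as live CD11b+ cells with low CD45, so that any other cell that meets this gate is sampled too, and fewer cells of a type and less RNA per cell cannot be told apart in such bulk libraries. PBS-treated wild-type C57BL/6J females of 14 months (5 mice) and 24 months (3 mice) gave the ages on either side of 16 months, and PBS-treated wild-type C57BL/6J males of 16 and 3 months (4 mice each) gave the same contrast in the other sex. The libraries come from separate mice, whose ages were not assigned at random.

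Microglia are the resident macrophages of the brain. In the healthy brain they carry a characteristic set of receptors, among them the purine receptor P2RY12 and the fractalkine receptor CX3CR1, under the control of transcription factors such as SALL1 and of TGF-beta signals. On damage, infection or demyelination they lower these genes and raise chemokines, interleukin-1 family members, interferon-stimulated genes and a set of phagocytic and lipid-handling genes known as disease-associated. Chemokines draw leukocytes, interferon-stimulated genes restrict viruses, and MHC molecules present antigen to T cells.

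Values are batch-adjusted FPKM, which are fragments scaled to gene length and library size and then adjusted for batch by the authors, mostly in whole numbers. A gene was called when limma on log2(value + 1) gave a p adjusted over all 5647 genes under 0.05 and a fold over 1.5. Read numbers are not known for these libraries, and no depth can be given. Library sums ran from 460347 to 498922 at 16 months and from 496013 to 516571 at 3 months, a lower mean at 16 months by a two-sided exact permutation test (p = 0.0317, with 0.0159 the smallest this design allows), a test that no longer passed without 7 of the 9 mice taken out singly. The median log2 fold change of all genes was -0.18 as deposited, and -0.02 after each library was scaled by its median ratio to the others. Directions and calls are therefore given on both scales, as deposited and after this median-ratio scaling. Replicate 1 of the 16-month mice correlated with its own group at 0.916 to 0.936, against 0.946 to 0.957 among the other 4, and values between 0 and 1 are absent from all 5 of the 16-month libraries and present in all 4 of the 3-month ones, a difference that cannot be told apart from age.

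At 16 months 170 genes were higher (3.01% of those tested) and 339 lower (6.00%) than at 3 months. After median-ratio scaling 285 were higher (5.05%) and 105 lower (1.86%), so that the share of higher calls was 33.4% as deposited and 73.1% after scaling. All 170 rises and 105 of the 339 falls were called on both scales. The rises were led by chemokines, interleukin-1 family members and interferon-stimulated genes, and the falls by Tppp, Sall1 and Il16. The 5 and 4 values did not overlap for 279 genes above (4.94%) and 788 below (14.0%) the 3-month mice. Without replicate 1 of the 16-month mice 188 genes were higher and 349 lower, and without single 3-month mice the counts fell most, to 106 higher without replicate 2 and 173 lower without replicate 1. Leaving out 3-month replicate 3 or 4 gave 219 and 216 lower genes.

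**Figure D1:**
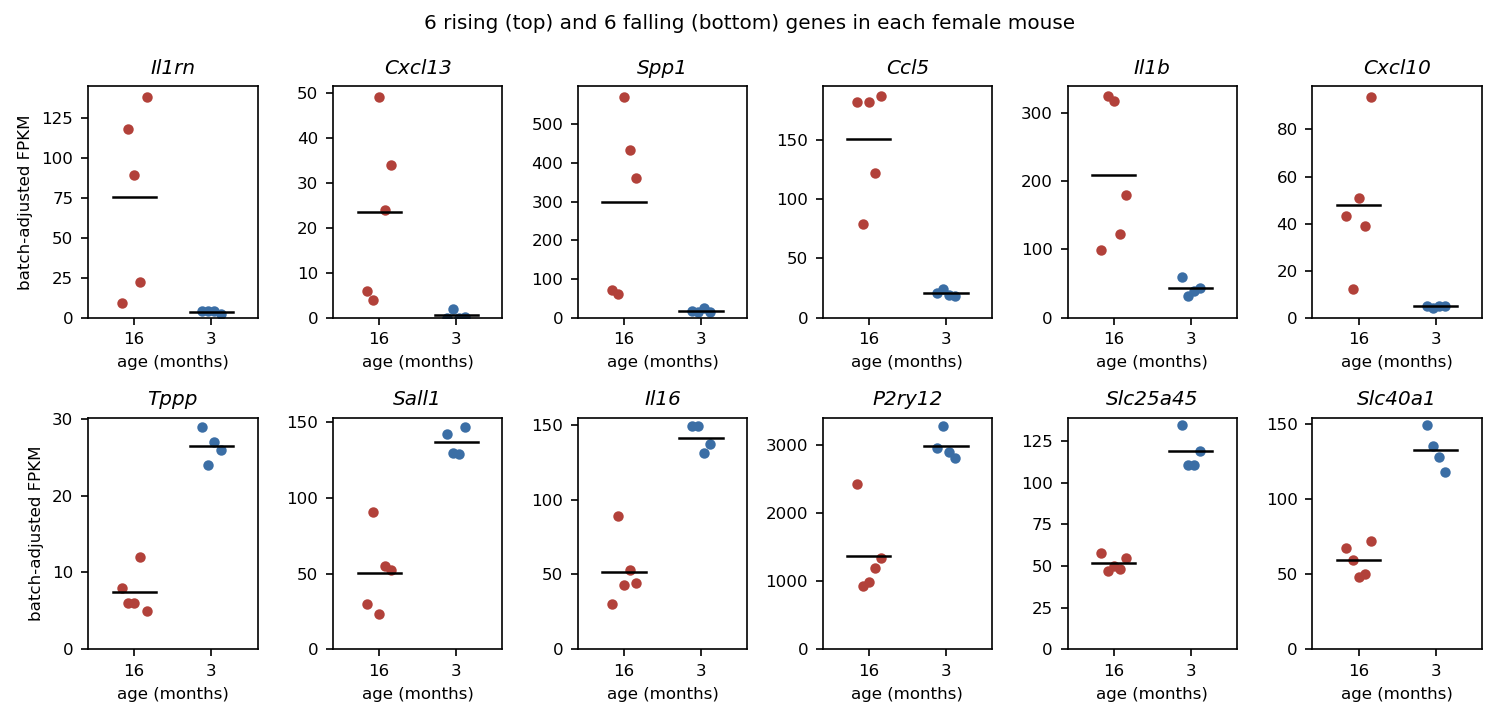
Batch-adjusted FPKM (vertical axes, linear from 0) of 12 genes in each female mouse, with the 5 mice of 16 months left (red) and the 4 mice of 3 months right (blue); black lines are group means. None of the 12 genes overlaps between the ages. Il1rn, Cxcl13 and Spp1 spread widely among the 16-month mice, whereas Slc25a45 lies between 47 and 58 in all 5.

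The genes of resting microglia were lower at 16 months. Of 35 measured members of the homeostatic list 17 were lower and none higher, and the list's median log2 fold change was -0.59 against -0.18 for all genes. After median-ratio scaling 4 remained lower, P2ry12, P2ry13, Sall1 and Slco2b1, with a list median of -0.43 against -0.02 for all genes. The share of all genes called lower was 6.00% as deposited and 1.86% after scaling. In 24 of the 35 every 16-month mouse lay below every 3-month mouse, against 14.0% of all genes.

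P2ry12 on chromosome 3 (59216272 to 59262871, GRCm38), which steers microglial processes towards ADP, had 2419, 929, 989, 1190 and 1331 FPKM in the 16-month mice, against 2952, 3283, 2896 and 2802 FPKM in the 3-month mice. All 5 older mice were below all 4 younger ones, with replicate 1 close to the younger level. The log2 fold change was -1.21 (SE 0.23, adjusted p = 0.0020), or -1.05 after scaling. Its relative P2ry13 had a log2 fold change of -0.92 and was lower on both scales.

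Sall1 on chromosome 8 (89027235 to 89044162), a transcription factor of microglial identity, had 30, 91, 23, 55 and 52 FPKM at 16 months, against 142, 130, 129 and 147 FPKM at 3 months. The groups did not overlap, and the spread was wider in the older mice. Its log2 fold change was -1.59 (SE 0.35, adjusted p = 0.0050), or -1.43 after scaling. Slco2b1, a transporter of organic anions, had 201, 277, 218, 276 and 240 FPKM, against 515, 406, 437 and 510 FPKM, with a log2 fold change of -0.95.

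Other defining receptors were lower as deposited and lost the call after scaling. Cx3cr1 had 1102, 1165, 887, 1408 and 1103 FPKM in the 16-month mice, against 2274, 2057, 1897 and 1961 FPKM in the 3-month mice. The groups were apart, with a log2 fold change of -0.87 as deposited and -0.70 after scaling (adjusted p = 0.055). Tmem119, a membrane protein that marks microglia, averaged 1555 FPKM against 2501 FPKM, with a log2 fold change of -0.69, or -0.52 after scaling (adjusted p = 0.016). Fcrls changed by -0.61 and Csf1r, the receptor on which microglia depend for survival, by -0.59. After scaling they had -0.44 (adjusted p = 0.032) and -0.43 (adjusted p = 0.083), and neither was called. Rhob, a small GTPase, and Tgfbr1, a TGF-beta receptor, had changes of -1.08 and -0.67 as deposited and were not called after scaling, where the changes were -0.91 and -0.51.

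The largest falls outside this list were of genes with varied roles. Tppp, a protein that binds tubulin and is best known from oligodendrocytes, had 8, 6, 6, 12 and 5 FPKM at 16 months, against 29, 24, 27 and 26 FPKM at 3 months. The 5 older mice were far below the 4 younger ones, with a log2 fold change of -1.76 (SE 0.36, adjusted p = 0.0028). Il16, which encodes a chemoattractant of CD4+ cells, had 30, 89, 43, 53 and 44 FPKM, against 149, 149, 131 and 137 FPKM, with a log2 fold change of -1.52. Slc25a45, a mitochondrial carrier, had 58, 47, 50, 48 and 55 FPKM, against 135, 111, 111 and 119 FPKM. Its values hardly varied within either age, and its log2 fold change of -1.19 had the adjusted p of 3.8e-06. Lpar6, a receptor for lysophosphatidic acid, changed by -1.24. Sema4b, a semaphorin, Ccng2, a cyclin, Stard8, a GTPase-activating protein, and Inka1, Fam110a, Eva1a, Stoml1 and LOC102634078 had log2 fold changes of -1.49 to -1.31 and were lower on both scales. Eif2s3y also fell by 1.49, but it lies on the Y chromosome. Its values were 7 to 10 FPKM in the 16-month and 16 to 41 FPKM in the 3-month females. Males of 16 and 3 months averaged 29.8 and 30.5 FPKM, and the other female ages averaged 6.5 to 13.3 FPKM. The gene shares sequence with an X-linked copy and its value is uncertain. The cause of the high values in the 3-month females was not tested.

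An iron exporter was lower and an iron storage protein higher at 16 months. Slc40a1, the iron exporter ferroportin, had 67, 59, 48, 50 and 72 FPKM at 16 months, against 149, 135, 128 and 118 FPKM at 3 months, with a log2 fold change of -1.16 (adjusted p = 0.0016). Fth1, the ferritin heavy chain, had 2816, 3299, 4778, 3833 and 4632 FPKM, against 1956, 2030, 1939 and 2083 FPKM, with a log2 fold change of 0.92 (adjusted p = 0.00014). Both sets of values were apart and both calls held after scaling, while the other 13 of the 15 measured iron genes were not called on either scale. Among all genes 3.01% were higher and 6.00% lower as deposited, with 5.05% and 1.86% after scaling.

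Cytokines, chemokines and NF-kB targets were higher at 16 months. Of 50 measured members 23 were higher and 1, Ccl24, lower, the median being 0.99 on the log2 scale, and after scaling 26 were higher and none lower. Among all genes 3.01% were higher and 6.00% lower as deposited, with 5.05% and 1.86% after scaling. In 22 of the 50 the 16-month mice lay above every 3-month mouse, against 4.94% of all genes.

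Il1rn on chromosome 2 (24336853 to 24351494), the interleukin-1 receptor antagonist, had 9, 118, 89, 22 and 138 FPKM in the 16-month mice, against 4, 4, 4 and 2 FPKM in the 3-month mice. Every older mouse was above every younger one, but over a wide range, with replicates 1 and 4 lowest. The log2 fold change was 3.53 (SE 0.54, adjusted p = 0.00016). Il1b, which encodes interleukin-1 beta, had 99, 325, 317, 123 and 180 FPKM, against 59, 32, 39 and 43 FPKM, and again replicates 1 and 4 were the lowest of the older mice. Its log2 fold change was 2.12 (SE 0.27, adjusted p = 4.0e-05). Acod1, the enzyme that makes itaconate, had 2, 50, 48, 3 and 35 FPKM, against 1, 2, 0.08 and 0.82 FPKM. Replicates 2, 3 and 5 were high and replicates 1 and 4 were near the younger level, with a log2 fold change of 3.12 (SE 0.74, adjusted p = 0.0083).

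The chemokines differed in how evenly they rose. Cxcl13, which attracts B cells, had 6, 4, 49, 24 and 34 FPKM at 16 months, against 0, 2, 0 and 0.1 FPKM at 3 months, with a log2 fold change of 3.68 on the log2(value + 1) scale (adjusted p = 0.0020). Cxcl10, which attracts T cells and is induced by interferon, had 43, 12, 51, 39 and 94 FPKM, against 5, 4, 5 and 5 FPKM, with a log2 fold change of 2.83. Ccl5, which is also abundant in T and NK cells, had 182, 79, 182, 122 and 187 FPKM, against 21, 24, 19 and 18 FPKM, with a log2 fold change of 2.75 (SE 0.36, adjusted p = 4.1e-05). Replicate 2 was the lowest of the older mice for all 3 of these chemokines. Ccl4, Ccl3 and Tnf, which are among the first products of an activated macrophage, changed by 1.86, 1.51 and 1.70. Cxcl2, a neutrophil chemoattractant, changed by 2.02 and Ccl12 by 2.11, with Ccl12 losing its call in 7 of the 9 fits that left out 1 mouse. Clec4e, a receptor for mycobacterial and damage signals, and Hcar2, the receptor for beta-hydroxybutyrate and niacin, had 2.60 and 2.50. Among the receptors, Tlr2 and its co-receptor Cd14 were higher (1.43 and 1.00), whereas Tlr4 was lower as deposited (-0.64) and not called after scaling (-0.48) or in 11 of 18 alternatives in all. Nfkbia, the inhibitor that NF-kB itself induces, rose by 0.76, and Gpr84, a receptor of medium-chain fatty acids, by 1.71.

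Upstream sequence was examined because the members of these lists moved together. The 250 bases before a RefSeq transcription start on GRCm38 were searched on both strands for an interferon-type motif, GAAANNGAA, and an NF-kB-type motif, GGANTTTCC, which do not overlap each other in any window printed here. Windows were found for 4571 of the 5647 genes. At least 1 window held the interferon-type motif in 8.18% and the NF-kB-type motif in 1.47% of these genes, against 7.13% and 1.07% of all 32851 windows. Of the 18 cytokine list members that were higher as deposited and have a window, 6 held the NF-kB-type motif, and 9 of 38 measured members did. Of 20 interferon list members that were higher and have a window, 10 held the interferon-type motif, as did 23 of 44 measured members. The promoters of 3 rising genes with such a match follow to show the matches in place, 5′ to 3′ on the strand of the gene, with the matches in capitals. They are those of Cxcl10 (chr5:92348890-92349139, minus strand), with the interferon-type motif 213 and the NF-kB-type motif 158 bases before the start, of Acod1 (chr14:103046762-103047011, plus strand), with the NF-kB-type motif 85 bases before it, and of Cybb (chrX:9469325-9469574, minus strand), with interferon-type matches 167, 123 and 29 bases before it. A match is a run of letters and no measurement of binding.
Cxcl10: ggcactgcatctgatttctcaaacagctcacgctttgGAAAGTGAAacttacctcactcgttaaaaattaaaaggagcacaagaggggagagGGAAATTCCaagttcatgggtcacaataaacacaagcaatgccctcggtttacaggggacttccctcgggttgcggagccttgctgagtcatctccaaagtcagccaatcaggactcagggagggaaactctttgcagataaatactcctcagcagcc
Acod1: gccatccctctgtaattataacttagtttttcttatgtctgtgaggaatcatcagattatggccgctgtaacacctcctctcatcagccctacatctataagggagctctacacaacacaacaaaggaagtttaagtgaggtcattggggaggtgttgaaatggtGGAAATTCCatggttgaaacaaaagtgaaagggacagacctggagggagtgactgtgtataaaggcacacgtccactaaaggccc
Cybb: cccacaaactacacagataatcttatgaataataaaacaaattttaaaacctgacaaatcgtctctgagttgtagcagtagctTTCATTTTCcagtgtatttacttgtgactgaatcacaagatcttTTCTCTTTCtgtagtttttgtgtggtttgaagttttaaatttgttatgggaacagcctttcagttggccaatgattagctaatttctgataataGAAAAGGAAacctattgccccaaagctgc

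Interferon-stimulated genes were higher at 16 months. Of 52 measured members 26 were higher and none lower, the median being 0.92 on the log2 scale, and after scaling 32 were higher and none lower, with a median of 1.08. The share of all genes called higher was 3.01% as deposited and 5.05% after scaling. In 25 of the 52 every 16-month mouse was above every 3-month mouse, against 4.94% of all genes. Zbp1, a sensor of Z-form nucleic acid, had 12, 14, 18, 19 and 40 FPKM in the 16-month mice, against 4, 6, 3 and 3 FPKM in the 3-month mice, a log2 fold change of 2.02 (SE 0.36, adjusted p = 0.00088). Ifitm3, which blocks viral entry, had 166, 263, 638, 378 and 472 FPKM, against 137, 131, 173 and 119 FPKM. Its lowest older value, of replicate 1, lay within the younger range, and its log2 fold change was 1.31 (SE 0.28, adjusted p = 0.0036). Ifit1, which binds viral RNA, changed by 2.02 and Ifitm1 by 2.22 (adjusted p = 0.043), where 1 of the 3-month mice, with 16 FPKM, overlapped the older group. Ifitm1 lost its call in 10 and Ifit1 in 4 of 18 alternatives.

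**Figure D2:**
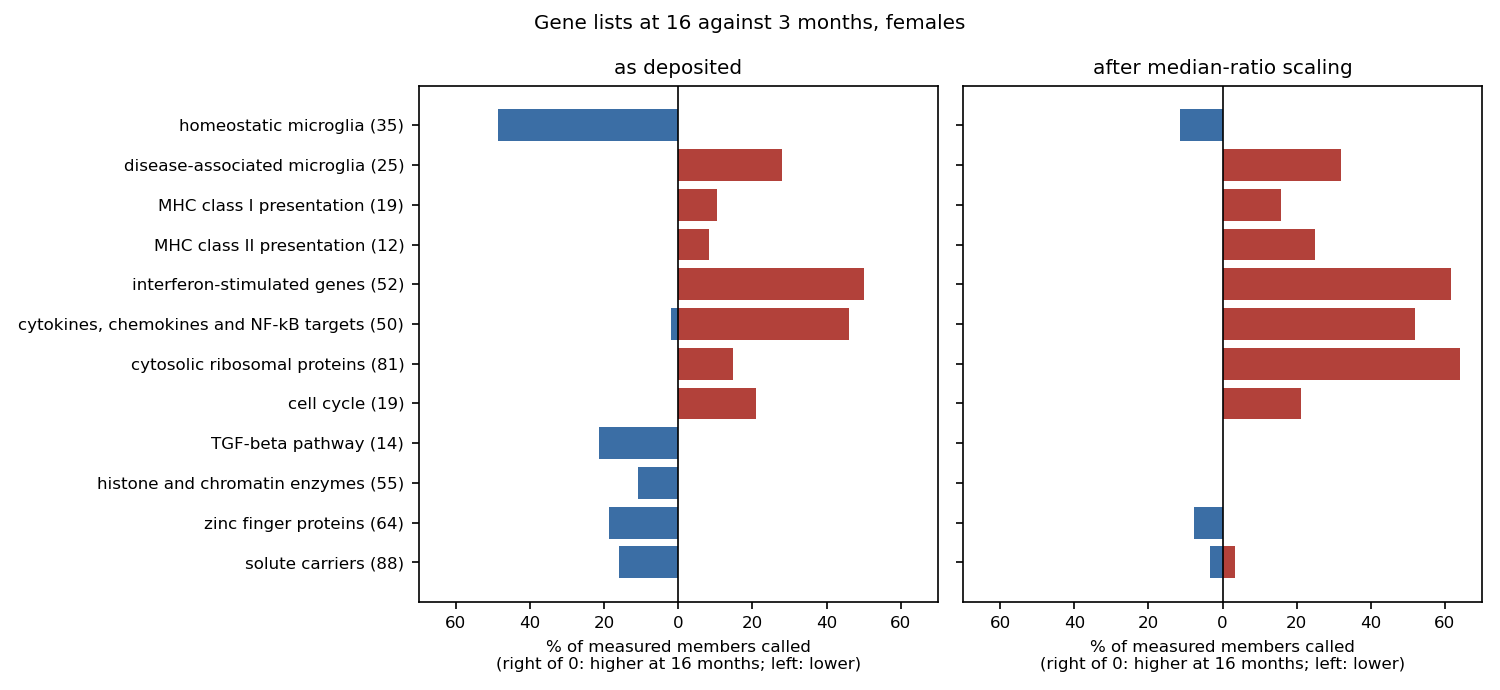
Share of the measured members of 12 gene lists (number in brackets) that were called higher (red, right of 0) or lower (blue, left of 0) in 16-month against 3-month females, as deposited (left panel) and after median-ratio scaling (right panel). Interferon-stimulated genes and cytokines are on the right in both panels, 17 and 4 of 35 homeostatic genes are on the left, and the cytosolic ribosomal bar grows to 52 of 81 members after scaling.

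Disease-associated genes rose in part. Of 25 measured members 7 were higher and none lower, and 8 were higher after scaling, against 3.01% and 5.05% of all genes higher. The list's median on the log2 scale was 0.26, or 0.43 after scaling. Spp1 on chromosome 5 (104435118 to 104441050), which encodes the secreted protein osteopontin, had 72, 61, 571, 434 and 361 FPKM in the 16-month mice, against 17, 14, 25 and 15 FPKM in the 3-month mice. Replicates 1 and 2 were several-fold below the other 3 but still above all younger mice, and the log2 fold change was 3.52 (SE 0.59, adjusted p = 0.00051). Cst7, a cysteine protease inhibitor, had 17, 15, 108, 48 and 46 FPKM, against 8, 9, 13 and 10 FPKM, with the same mice low and a log2 fold change of 1.78. Axl, a receptor for apoptotic cells, changed by 1.12, Cd52 by 1.07, Cd63, a tetraspanin of late endosomes, by 0.73 and Cybb, the catalytic subunit of the phagocyte NADPH oxidase, by 1.09. Axl was at 14 FPKM in 16-month replicate 1, within the 12 to 19 FPKM of the 3-month mice. It lost its call in 2 of 18 alternatives. Clec7a, the receptor dectin-1, was called only after scaling (0.89 as deposited, adjusted p = 0.079, and 1.05 after scaling, adjusted p = 0.045). Lpl had 7, 7, 58, 44 and 25 FPKM, against 8, 6, 9 and 8 FPKM, and its log2 fold change of 1.30 was not called (adjusted p = 0.14). Apoe had 3678, 2225, 8628, 4675 and 3131 FPKM, against 4174, 3873, 4661 and 4260 FPKM. The older mice spread on both sides of the younger ones, and the log2 fold change of -0.08 turned to 0.08 after scaling.

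Some MHC genes passed. Of 19 measured class I presentation genes 2 were higher, and of 12 class II genes 1, with 3 and 3 after scaling. Over all genes 3.01% were higher as deposited and 5.05% after scaling. H2-D1, a classical class I heavy chain, had 856, 784, 1345, 1011 and 1073 FPKM at 16 months, against 708, 519, 639 and 646 FPKM at 3 months, with a log2 fold change of 0.67 (SE 0.18, adjusted p = 0.016). Its groups did not overlap, but the call was lost without 3-month replicate 2 (adjusted p = 0.071) or 16-month replicate 3 (adjusted p = 0.053). H2-Q7, a nonclassical class I gene that shares sequence with its neighbours so that its value is uncertain, had 23, 11, 24, 21 and 29 FPKM, against 5, 7, 4 and 5 FPKM, with a log2 fold change of 1.81. Of the class II genes H2-Eb1 rose by 0.63 (adjusted p = 0.035), a call lost in 10 of 19 alternatives. Cd74, the invariant chain, and H2-Ab1 had 0.53 and 0.60 and were not called as deposited (adjusted p = 0.12 and 0.059), with 0.70 (adjusted p = 0.060) and 0.76 (adjusted p = 0.021) after scaling.

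The number of ribosomal protein genes called depended on the scale, and their direction did not. Of 81 cytosolic members 12 were higher as deposited and 52 after scaling, and none was lower on either scale. As deposited 80 of the 81 had a positive log2 fold change. The median was 0.46, or 0.62 after scaling, and passed the fold threshold of 1.5 only after scaling. In 50 of the 81 every 16-month mouse was above every 3-month mouse, against 4.94% of all genes. Rps16 had 246, 248, 269, 254 and 220 FPKM in the 16-month mice, against 126, 131, 155 and 183 FPKM in the 3-month mice, a log2 fold change of 0.74 (adjusted p = 0.0014). Eef1a1, the translation elongation factor, rose by 0.59. Members of the cell cycle list that were higher were Ccnd2 (1.67), the cell cycle inhibitors Cdkn1a (1.52) and Cdkn2d (1.44), and Cdk6 (0.74), a kinase of the G1 phase, 4 of 19 on either scale. Zinc finger proteins went the other way, with 12 of 64 lower as deposited and 5 of 64 after scaling, among them Zfp69 (-1.21). Of 55 chromatin enzymes 6 were lower and of 14 TGF-beta pathway genes 3, and neither list had a call after scaling. Beside these counts, 3.01% of all genes were higher and 6.00% lower as deposited, with 5.05% and 1.86% after scaling. Of 27 immediate early genes 3 were higher and 3 lower, and after scaling 3 were higher and 1, Jun, lower. Gadd45b (1.89) and Plk2 (0.93) were among those higher on both scales. Jun, which tissue dissociation can induce, had 238, 431, 362, 428 and 370 FPKM, against 684, 644, 677 and 713 FPKM, a log2 fold change of -0.92.

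Genes of transport, metabolism and phagocytosis changed in smaller numbers. Over all genes 3.01% were higher and 6.00% lower as deposited, with 5.05% and 1.86% after scaling. Of 88 solute carriers 14 were lower and none higher as deposited, and 3 were lower and 3 higher after scaling. Slc46a3, a lysosomal transporter, had -1.19 and stayed lower after scaling beside Slc25a45 and Slc40a1. Of 23 lipid genes the scavenger receptor Cd36 (-0.90), Insig2 (-0.75), which retains SREBP in the endoplasmic reticulum, and Stard3 (-0.69), a sterol transporter, were lower, and none of these calls held after scaling. Of 16 complement and Fc receptor genes C5ar1, the receptor for C5a, and Fcgr4, an activating IgG receptor, were higher on both scales (1.12 and 1.36). Txnrd1, a thioredoxin reductase, was the 1 antioxidant gene of 23 that was higher as deposited (1.01), a call lost in 10 of 18 alternatives, with 4 genes higher after scaling. Ldha, lactate dehydrogenase A, was higher (0.68) and Mpi, mannose phosphate isomerase, lower (-0.84) among 19 glycolysis genes, both on both scales. Of 57 lysosomal genes Cd63 was the 1 called, although it lost the call in 7 of 19 alternatives. Of 85 respiratory chain genes Ndufaf7 (-0.74) was called as deposited, a call lost in 12 of 18 alternatives, and none was called after scaling. None of 46 proteasome genes was called by limma as deposited, by adjusted or by unadjusted p, and 3 were higher after scaling.

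Markers of other cells were measured in the same libraries. Marker sums, here and below, are of values as deposited and were not rescaled. Each of the 10 defining microglial markers was above 0 in all 9 mice, and their summed value was 12604 to 17229 FPKM at 16 months, against 20786 to 22342 FPKM at 3 months. Of 18 neutrophil markers none was called by limma as deposited and 1 was higher by the unadjusted p, and 1, Hp, was called higher after scaling. The log2 fold change as deposited was negative for 14 of the 18. The list's median was -0.46, or -0.30 after scaling, against -0.18 and -0.02 for all genes. The sum was 2850 to 16629 FPKM, against 7295 to 19356 FPKM. Within the 16-month mice it was 2850, 9503, 16629, 7041 and 13545 FPKM, lowest in replicates 1 and 4, which were also lowest for Il1rn, Il1b, Acod1, Clec4e and Cxcl2. In the 3-month mice the neutrophil sum was 13442, 8888, 19356 and 7295 FPKM, and Il1rn was at 4, 4, 4 and 2 FPKM. The part of neutrophils in the values of these genes was not tested. Of 4 measured T and NK cell markers, out of 19 listed, Ccl5, Nkg7 and Ms4a4b were higher, and the sum was 116 to 331 FPKM, against 48 to 57 FPKM. Ccl5, counted in the cytokine list too, gave 79 to 187 FPKM of the older and 18 to 24 FPKM of the younger sums. Of 9 monocyte markers Plac8 (2.39) and Ms4a4c (2.07) were higher, with a sum of 512 to 1658 FPKM against 541 to 1076 FPKM. Of the 2 measured B and plasma cell markers Jchain was higher (2.93), and Cd79b was lower by the unadjusted limma p alone. Their sum was 42 to 139 FPKM against 37.4 to 91 FPKM. Of 12 border-associated macrophage markers Clec10a (-1.18), Ccl24 (-0.85) and Stab1 (-0.74) were lower, of which only Clec10a was called after scaling, with a sum of 459 to 632 FPKM against 714 to 853 FPKM. No marker of these lists was at 0 in any of the 9 mice. Of the 5 endothelial and mural markers Ly6a (1.90), which interferon also induces, was higher. The other 4 had negative log2 fold changes and were not called, and the sum was 400 to 502 FPKM against 476 to 530 FPKM. None of the 6 astrocyte, 5 oligodendrocyte, 3 choroid plexus and ependymal, 3 erythroid and 1 neuron markers was called by limma, and by the unadjusted p 2 oligodendrocyte markers were higher. The part of these cells in the changes of chemokines and interferon-stimulated genes was not tested.

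**Figure D3:**
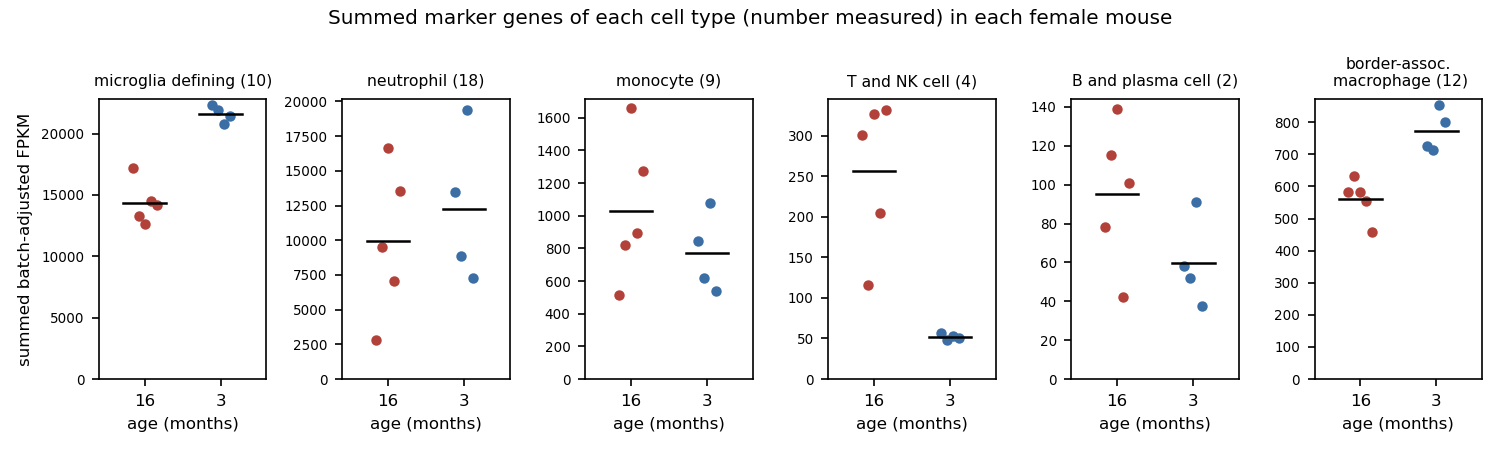
Summed batch-adjusted FPKM of the measured markers (number in brackets) of 6 cell types in each female mouse, 16 months left (red) and 3 months right (blue), with black lines at the means. As deposited, microglial and border-associated macrophage sums are lower and the T and NK cell sum is higher at 16 months with no overlap. The neutrophil, monocyte and B and plasma cell sums overlap.

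The 16-month level was then set beside the other female ages. Values between 0 and 1 are absent from the 16-month libraries alone among the 7 female ages, so that this mark of the table cannot be told apart from the 16-month age in these contrasts either. Against 14 months only 9 of 5647 genes (0.159%) were called, all at an adjusted p of 0.049. Higher were Acod1, Srgn, which encodes the granule proteoglycan serglycin, Cmklr1, the chemerin receptor, Gpx1, a glutathione peroxidase, and Rps24. Lower were Ccm2, Dcakd, Icosl and Hsd17b11. Their changes ran from 0.59 for Rps24 to 3.34 for Acod1 and from -0.72 for Ccm2 to -0.85 for Icosl and Hsd17b11. These calls rest on a narrow margin, since none was left when any of the 14-month replicates 1 to 4 or the 16-month replicates 2 to 4 was left out.

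At 24 months 182 genes were higher (3.22%) and 41 lower (0.726%) than at 16 months, and after scaling 34 were higher and 90 lower. The count of 223 calls fell to 24, 75 and 116 without 24-month replicates 1, 2 and 3, and to 140 and 99 without 16-month replicates 2 and 4. Some of the genes that were high at 16 months were low again at 24 months. Il1rn averaged 3.5, 6, 7, 8, 10.6, 75.2 and 5 FPKM over the 7 female ages in order, with 16 months before the last (SD 1.0, 4.2, 4.0, 2.6, 3.8, 57.4 and 1.0). The 16-month mean was the highest of these, with a log2 fold change of -3.10 at 24 against 16 months (adjusted p = 0.0041) and of 2.21 at 16 against 14 months (adjusted p = 0.064). Srgn averaged 193 FPKM at 14, 380 FPKM at 16 and 136 FPKM at 24 months, with a log2 fold change of 0.94 at 16 against 14 and of -1.45 at 24 against 16 months (adjusted p = 0.00030). Acod1 was at 0.64, 27.6 and 1 FPKM at these ages. The summed neutrophil markers were 2412 to 7015 FPKM at 14, 2850 to 16629 FPKM at 16 and 3395 to 9378 FPKM at 24 months, and the list's median log2 fold change was 0.90 at 16 against 14 and -0.35 at 24 against 16 months. The summed monocyte markers were 361 to 777, 512 to 1658 and 556 to 1333 FPKM at these ages, with medians of 0.78 and -0.53. Their part in the values of Il1rn, Srgn and Acod1 was not tested. Il1b peaked at 16 months with 209 ± 107 FPKM (SD, n = 5) but was also raised at 6 months, with 166 ± 19 FPKM (SD, n = 2). Slc25a45, lower at 16 months, was at 73.8, 51.6 and 109 FPKM at 14, 16 and 24 months, with a log2 fold change of 1.07 at 24 against 16 months (adjusted p = 8.5e-05).

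Other genes did not turn at 16 months. Spp1 averaged 236, 300 and 367 FPKM at 14, 16 and 24 months, and its log2 fold change of 0.79 at 24 against 16 months was not called (adjusted p = 0.45). H2-D1 averaged 628 FPKM at 3, 1014 FPKM at 16 and 1428 FPKM at 24 months. P2ry12 was at 2983, 1892, 1549, 981, 1608, 1372 and 1715 FPKM from 3 to 24 months, so that its lowest mean was at 12 months, and 24 against 16 months gave 0.40 (adjusted p = 0.34). The contrasts of 16 months with 3, 14 and 24 months share the 16-month mice.

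**Figure D4:**
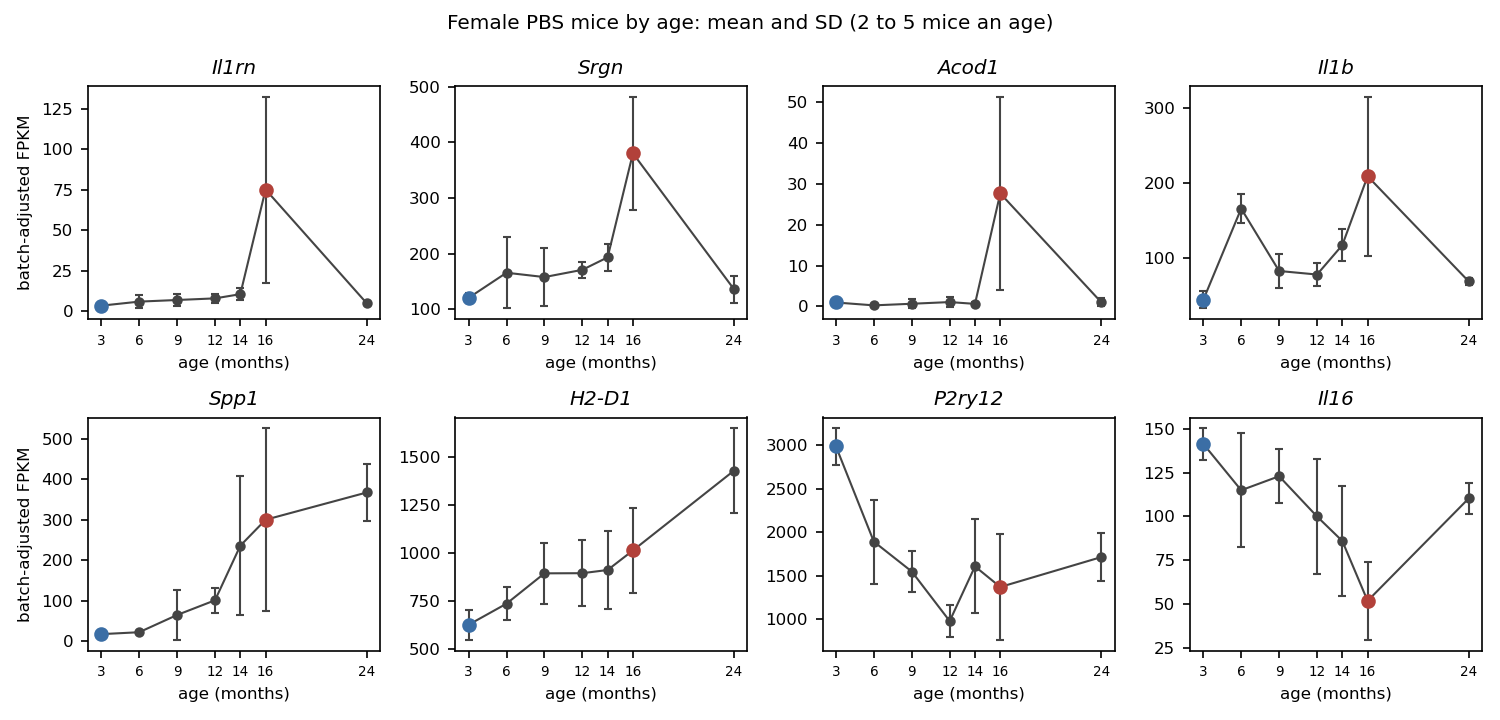
Mean and SD (bars) of batch-adjusted FPKM at the 7 female ages, with 2 to 5 PBS-treated mice an age, 16 months in red and 3 months in blue; the vertical axes do not all start at 0. Il1rn, Srgn and Acod1 stand out at 16 months, Spp1 and H2-D1 are highest at 24 months, and Il16 is lowest at 16 months.

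In males 249 genes were higher (4.41%) and 111 lower (1.97%) at 16 than at 3 months. Values between 0 and 1 are absent from all 4 of the 16-month male libraries and from 2 of the 4 of 3 months. This mark of the table thus goes in part with age in males too. Of the 170 genes higher in females 97 were higher in males too, 57.1% of the female and 39.0% of the male list. Of the 339 lower in females 57 were lower in males, 16.8% of the female and 51.4% of the male list. Of the 105 falls called in females on both scales 27 were lower in males, 25.7% of the female and 24.3% of the male list. Il1rn had 118, 176, 331 and 160 FPKM in 16-month males, against 3, 13, 9 and 0.66 FPKM in 3-month males, with a log2 fold change of 5.05 in males. P2ry12 had 1574, 1643, 1578 and 1119 FPKM in 16-month males, against 1794, 3092, 3413 and 3514 FPKM in 3-month males, with -0.97. For these genes the difference between the sexes was not called (adjusted p = 0.58 and 0.79).

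The change with age differed between the sexes for 2 genes (0.0354%), both lower in females relative to males on both scales. Rgs3, a regulator of G protein signalling, had 9, 11, 7, 5 and 15 FPKM in 16-month females, against 24, 20, 21 and 22 FPKM in 3-month females, and 38, 19, 30 and 45 FPKM in 16-month males, against 22, 6, 12 and 15 FPKM in 3-month males. It was lower in every older female and higher on average in the older males, and the female minus male difference of the log2 fold changes was -2.47 (SE 0.44, adjusted p = 0.0064). Cxcr2, the neutrophil receptor for CXCL2, had 9, 34, 48, 13 and 30 FPKM in 16-month females, against 61, 34, 50 and 21 FPKM in 3-month females, which overlap. In males it had 40, 71, 60 and 31 FPKM at 16 months, against 7, 8, 13 and 9 FPKM at 3 months, which do not. The difference was -3.03 (SE 0.55, adjusted p = 0.0064). The summed neutrophil markers, of which Cxcr2 is one, were 9788 to 33678 FPKM in 16-month males, against 2997 to 4963 FPKM in 3-month males, and 11 of the 18 were higher there. Their part in the Cxcr2 difference was not tested.

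**Figure D5:**
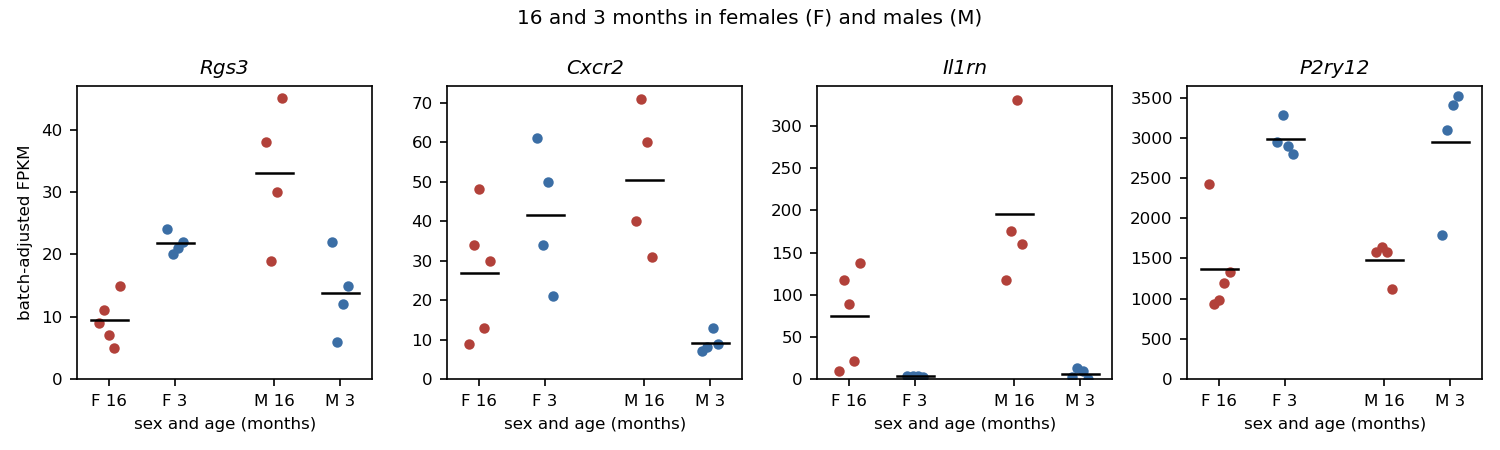
Batch-adjusted FPKM (linear axes from 0) of 4 genes in each female (F) and male (M) mouse of 16 (red) and 3 months (blue), with black lines at the means. Rgs3 is lower at 16 months in females and mostly higher in males, Cxcr2 is apart only in males, and Il1rn and P2ry12 move the same way in both sexes.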

How the data were processed

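Bulk RNA-seq was analysed from microglia of PBS-treated female and male mice, 1 mouse per library, grouped by the sex, age and treatment in their titles. Reads had been cleaned with SOAPnuke, mapped to mm10 by HISAT2 2.0.4, aligned to mouse coding genes by Bowtie2 2.2.5 and quantified as FPKM by RSEM 1.2.12. The authors adjusted the FPKM with ComBat_seq for batches that are not named and dropped genes averaging under 10 FPKM. What they deposited is a score per gene and library, namely adjusted FPKM in whole numbers apart from 297 values, and not counts. No read depth is known, and no counting interval was computed.

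Values were taken as log2(value + 1), a scale that understates the change of low genes, and fitted with limma 3.58.1 (R 4.3.3, statmod 1.5.0) with a variance trend, over all 26 PBS-treated females in 7 groups, or over both sexes at shared ages in 12 groups for the male contrast and the difference between the sexes. Benjamini-Hochberg adjustment ran over 5647 genes. Median-ratio scaling divided each library by its median ratio to the geometric mean of all libraries in the fit. The contrasts and gene lists were chosen with earlier results of these data known, and lists are described by counts and medians. Named genes are the 12 largest rises and 12 largest falls called on both scales without overlap, up to 3 called members of each list, a fixed set of microglial genes, and all calls against 14 months and of the difference between the sexes. P2ry13, Slco2b1, Csf1r, Lpar6, Cxcl2, Gpr84, Ifit1, Cd52, Cdk6 and Jun were added after their values were seen. The fit was tested on simulated data. Positions are those of GENCODE on GRCm38, and promoters those of RefSeq on GRCm38.p6. Alternatives were other scalings, other pseudocounts (0.5 and 5), only genes averaging 50 or more, robust or trend-free moderation, other thresholds, other sets of groups, a replicate block, and leaving out each mouse.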

Additional observations from a re-analysis of the deposited data

Results flagged for a closer look

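Rgs3 and Cxcr2 changed differently with age in females and males by the test of the difference itself, with female minus male differences of -2.47 and -3.03 on the log2 scale. Both kept the call under every alternative run except the filter at a mean of 50, which removes them from the test.

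Among 32 groups of values tested for a mouse far from the rest of its group, 4 stood out. Chance flags about 1 in 20 groups, a rate that does not hold for the 3 groups of 3-month mice below, whose values are tied or nearly tied at whole numbers. P2ry12 was at 2419 FPKM in 16-month replicate 1, above the other 4 mice of its age. In the 3-month mice Cxcl10 was at 4 FPKM in replicate 2, against 5 in the other 3, Il1rn at 2 FPKM in replicate 4, against 4 in the others, and Cxcl13 at 2 FPKM in replicate 2, against 0 to 0.1 in the others.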

How the results depend on the processing

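At 16 against 3 months 509 genes were called. Median-ratio scaling gave 285 higher and 105 lower, scaling to the same total 215 higher and 152 lower, the filter at a mean of 50, which tests fewer genes, 203 calls (71 higher, 132 lower), the 16- and 3-month groups alone 773 (529 lower), and the unadjusted p 836 (266 higher, 570 lower). Leaving out 1 mouse gave 280 to 537 calls, 106 to 188 higher and 173 to 349 lower. The replicate block gave 491. Same-numbered mice of both ages deviated together with correlations of -0.15 to 0.163, so the numbers were not taken as pairs. Of 105 named genes called as deposited 63 kept the call under every alternative that could be run on them. Median-ratio scaling removed 21 of these calls, all of falls. Apoe, not called on any scale, turned to 0.0844 with median-ratio and 0.0195 with total scaling and ranged from -0.36 to 0.13 with 1 mouse left out. Tsc22d3, a glucocorticoid-induced gene at 0.05, ranged from -0.0843 to 0.36. The difference in library totals of -33273.3 ranged from -39677.7 to -29942.1, and its exact p exceeded 0.05 without 7 of the 9 mice.

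At 16 against 14 months pseudocount 0.5, robust moderation, no mean-variance trend and the replicate block each left 0 of the 9 calls (0 higher, 0 lower). The filter left 0 lower, scaling to the same total 3 higher, and the unadjusted p gave 173 (107 higher, 66 lower). Leaving out 1 mouse gave 0 to 7 calls, 0 to 7 higher and 0 to 1 lower.

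At 24 against 16 months median-ratio scaling gave 124 (34 higher, 90 lower), scaling to the same total 95 (31 higher, 64 lower), the filter 120 (103 higher, 17 lower), the replicate block 146 (118 higher), and the unadjusted p 801 (614 higher, 187 lower). Leaving out 1 mouse gave 24 to 176 calls, 17 to 145 higher and 7 to 37 lower.

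For the difference between the sexes median-ratio scaling added 1 higher gene, scaling to the same total gave 4 (2 higher), the filter 0 (0 lower), the replicate block 9 (1 higher, 8 lower) and the unadjusted p 446 (81 higher, 365 lower). Leaving out 1 mouse gave 2 to 8 calls, 0 to 1 higher and 2 to 7 lower. The cause of these shifts was not tested. Depth, which is not known, sets how far values of a few FPKM can be trusted.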
